A study of Bos taurus with 24 samples.

Results

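NOS2 and ACOD1 are 2 enzymes that macrophages make in response to bacteria, and their expression was followed here in bovine monocyte-derived macrophages (MDMs) from cows with a high or a low nitric oxide response to Escherichia coli. The 2 genes were taken by identifier, ENSBTAG00000006894 for NOS2 and ENSBTAG00000008259 for ACOD1, out of 24616 Ensembl genes listed for the bovine genome UMD 3.1. Both passed the filter on low counts in every comparison. MDMs of 6 lactating Holstein cows were grown from blood monocytes for 6 days with 5 ng/ml GM-CSF and seeded into wells, and for each cow 1 well was left untreated (control) and 1 was exposed to E. coli at a multiplicity of infection of 5, for 3 hours on 1 plate and for 18 hours on the other. This gave 8 conditions of 3 cows each and 24 mRNA libraries: high or low responder, control or exposed, 3 or 18 hours. The cows had been placed in the high or the low responder group by the nitric oxide that their MDMs released after E. coli in vitro. Since NOS2 makes nitric oxide, its difference between both groups is not independent of how the groups were formed, and this applies to each comparison of NOS2 between phenotypes given here.

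NOS2, the inducible nitric oxide synthase, turns arginine into nitric oxide and citrulline, and nitric oxide is toxic to many bacteria. ACOD1, also known as IRG1, is a mitochondrial enzyme that takes cis-aconitate out of the citrate cycle and makes itaconate, which inhibits the isocitrate lyase of bacteria and also dampens inflammatory signalling in the macrophage. Both genes are known to be nearly silent or low in resting macrophages and to be switched on after bacterial lipopolysaccharide or interferon gamma is sensed. GCH1 starts the synthesis of tetrahydrobiopterin, the cofactor of NOS2, ASS1 recycles citrulline towards arginine, and ARG2 is a mitochondrial arginase that competes for arginine.

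The libraries held between 6297190 and 20936554 expected counts (median 12375480). Of the macrophage markers, CD68 was between 1215 and 2671 TPM (transcript abundance per length, scaled to the same total in each library), CD14 between 41.0 and 321 TPM, AIF1 between 61.1 and 452 TPM and the scavenger receptor MSR1 between 15.5 and 788 TPM, its lowest values being in wells exposed for 18 hours. Their sum over the 4 of 7 macrophage markers with an identifier ranged from 1653 to 3800 TPM over all libraries. CD79A of B cells stayed between 0.17 and 2.67 TPM and PRF1 of NK cells between 0.13 and 2.50 TPM, whereas the listed markers of T cells, granulocytes and dendritic cells carry no identifier here and were not analysed. In bulk RNA, fewer cells that express a gene and less of its RNA per cell cannot be told apart. Cows are named below by the number in their library code, which names a cow only within 1 phenotype and 1 time point.

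NOS2 was close to absent in control wells and abundant after E. coli, most of all at 18 hours. By TPM, exposed wells at 3 hours had it at places 293 to 319 in high and 335 to 632 in low responders. Levels are given in CPM, which divides each count by the TMM-normalized size of its library. In control wells at 3 hours, NOS2 was at 2.18, 5.10 and 4.62 CPM in high responder cows 92, 93 and 94 and at 6.55, 9.44 and 7.78 CPM in low responder cows 91, 92 and 93. In exposed wells at 3 hours, it was at 1893, 2002 and 1532 CPM in the same high responders and at 805, 1702 and 1073 CPM in the same low responders. Every exposed well thus stood far above every control well, while high and low responders overlapped in the exposed wells through low responder cow 92.

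At 18 hours, NOS2 in control wells was at 8.02, 6.36 and 5.55 CPM in high responder cows 91, 93 and 94 and at 6.28, 3.79 and 8.19 CPM in low responder cows 91, 92 and 94. In exposed wells, it was at 6619, 7069 and 9294 CPM in the high responders and at 4059, 1988 and 3378 CPM in the low responders. The exposed wells of both phenotypes did not overlap at this time, and the control wells did. The control levels rest on few read pairs, from 16 (95% Poisson interval 9.15 to 26.0, counting error only) in high responder cow 92 at 3 hours to 117 in high responder cow 91 at 18 hours, so that folds against them are less precise than the levels in exposed wells.

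ACOD1 was already expressed in control wells, at a level well above that of NOS2. At 3 hours it was at 70.3, 38.7 and 38.5 CPM in control wells of high responder cows 92, 93 and 94 and at 85.6, 108 and 144 CPM in those of low responder cows 91, 92 and 93. After 3 hours of E. coli, it was at 5017, 4308 and 3398 CPM in the high responders and at 2281, 3738 and 2981 CPM in the low responders. The control wells of the high responders all lay below those of the low responders, and the exposed wells of both phenotypes overlapped.

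At 18 hours, control wells had 121, 82.0 and 91.7 CPM of ACOD1 in high responder cows 91, 93 and 94 and 98.9, 83.2 and 151 CPM in low responder cows 91, 92 and 94. Exposed wells had 2726, 2368 and 3183 CPM in the high responders and 1848, 1307 and 1935 CPM in the low responders. Here, the exposed wells did not overlap between phenotypes and the control wells did.

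**Figure D1:**
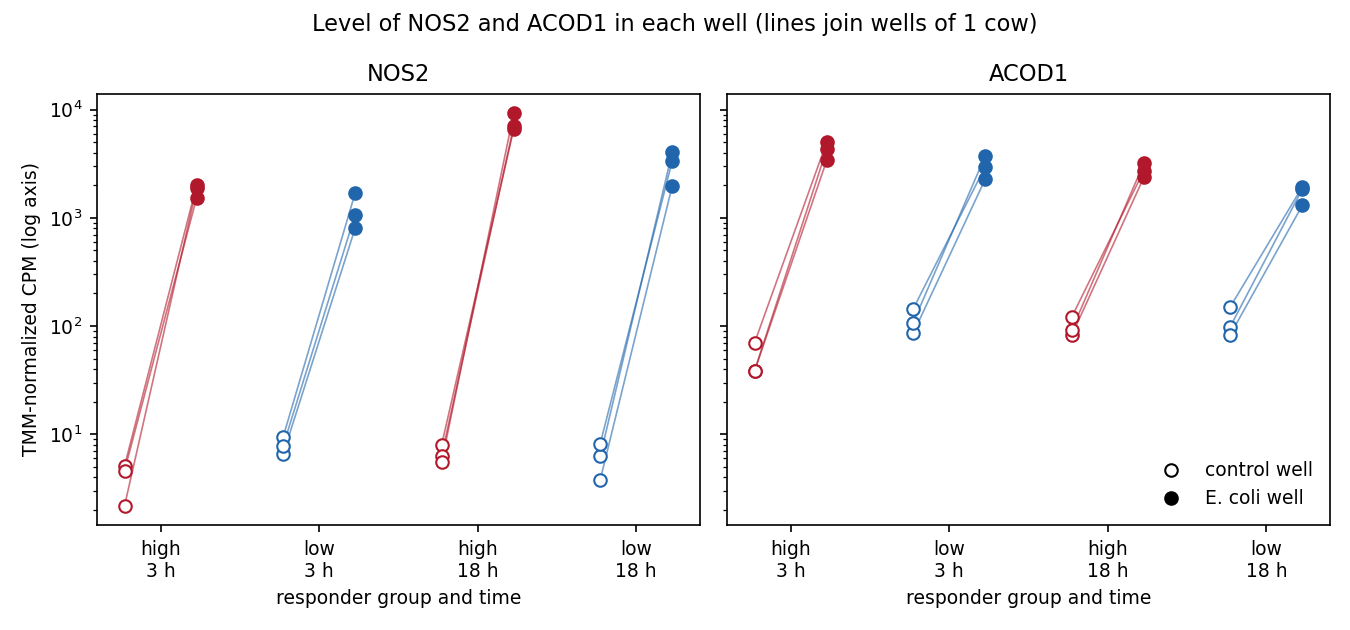
TMM-normalized CPM of NOS2 (left) and ACOD1 (right) on a log axis for each well, by responder group (high in red, low in blue) and time, with open circles for control wells, filled circles for E. coli wells and lines joining the wells of 1 cow. NOS2 starts between 2.18 and 9.44 CPM in control wells and reaches 9294 CPM, and ACOD1 starts between 38.5 and 151 CPM and reaches 5017 CPM.

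The order of the 8 conditions differed between both enzymes. NOS2 was highest in exposed high responders at 18 hours (7660.5 CPM ± 1432, SD, n = 3), followed by exposed low responders at 18 hours (3142 CPM ± 1055), exposed high responders at 3 hours (1809 CPM ± 246) and exposed low responders at 3 hours (1193 CPM ± 460). The first of these did not overlap with the next, while the second and the third, and the third and the fourth, overlapped. The 4 control conditions came last, between 3.97 CPM ± 1.56 and 7.92 CPM ± 1.45 (SD, n = 3), and each overlapped with its neighbour.

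ACOD1 was highest in exposed high responders at 3 hours (4241 CPM ± 811, SD, n = 3), followed by exposed low responders at 3 hours (3000.1 CPM ± 728), exposed high responders at 18 hours (2759 CPM ± 409) and exposed low responders at 18 hours (1697 CPM ± 340). The first 3 overlapped with their neighbours and the fourth stood apart from the third. Among control wells, ACOD1 ranged from 112 CPM ± 29.5 (SD, n = 3) in low responders at 3 hours to 49.2 CPM ± 18.3 in high responders at 3 hours, and this last condition did not overlap with the one above it.

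The first question was how far E. coli raised each enzyme within each phenotype. Both rose in both phenotypes at both times, and the fold was larger for NOS2 than for ACOD1 in 6 of 6 cows. At 3 hours, the rise of NOS2 in high responders was 456-fold (log2 8.83, SE 0.28, adjusted p = 2.83e-07 in edgeR's quasi-likelihood test), the 9th largest of 11264 genes tested. In low responders, NOS2 rose by 7.19 on the log2 scale (SE 0.26, adjusted p = 1.05e-06), or 146-fold, the 14th largest. The rise of ACOD1 was 92.2-fold in high responders (log2 6.53, SE 0.21, adjusted p = 2.83e-07) and 26.9-fold in low responders (log2 4.75, SE 0.19, adjusted p = 1.94e-06). A gene was called where its adjusted p was below 0.05 and its fold change above 1.5. Both enzymes were called, against 15.7% of all tested genes that were called higher in high responders and 9.93% in low responders at 3 hours.

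At 18 hours, NOS2 was 1135-fold higher in exposed than in control wells of the high responders (log2 10.15, SE 0.24, adjusted p = 9.01e-09, edgeR), the 4th largest rise of 11759 genes. In low responders its rise was 505-fold (log2 8.98, SE 0.23, adjusted p = 2.44e-08), the 6th largest. The rise of ACOD1 was 28.0-fold in high responders (log2 4.81, SE 0.15, adjusted p = 2.43e-08) and 15.3-fold in low responders (log2 3.94, SE 0.15, adjusted p = 1.18e-07). At this time, 17.1% of tested genes were called higher in high responders and 11.3% in low responders. NOS2 alone took between 0.628% and 0.844% of all counts in the exposed wells of the high responders at 18 hours and between 0.215% and 0.422% in those of the low responders, against at most 0.00103% in any control well.

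The second question was whether E. coli raised the enzymes more in high than in low responders. For each cow, the effect is the log2 ratio of its exposed to its control well. The effects on NOS2 at 3 hours were 9.76, 8.62 and 8.37 in high responder cows 92, 93 and 94 and 6.94, 7.49 and 7.11 in low responder cows 91, 92 and 93. The effects on ACOD1 were 6.16, 6.80 and 6.46 in the high responders and 4.74, 5.12 and 4.37 in the low responders. For both genes each high responder cow thus lay above each low responder cow, a separation in this direction that 9.06% of 11905 genes showed at 3 hours.

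In the edgeR fit, the difference of the effects at 3 hours, high minus low, was 1.77 on the log2 scale for ACOD1 (SE 0.24, adjusted p = 0.0279), a 3.42-fold larger rise in high responders, and it was called. For NOS2 the difference was 1.64 (SE 0.32, adjusted p = 0.0781), which was not called. In this comparison 20 genes were called, all with the larger rise in high responders, or 0.178% of those tested. The call of ACOD1 rests on the pairing of the wells and on nearly all cows: without the term for the cow its difference was 1.74 with an adjusted p of 0.633, with a term for the library code 1.79 with an adjusted p of 0.137, and it missed the threshold when any cow other than high responder cow 94 was left out (adjusted p up to 0.174). The difference of NOS2 was past the threshold with DESeq2 (1.66, adjusted p = 0.000293). Library codes, which the labels do not explain, were 91 and 92 or 93 and 94, and high minus low was 1.23 and 2.26 for ACOD1 and 2.54 and 1.39 for NOS2 within these, with 1 or 2 cows per phenotype.

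At 18 hours, the effects on NOS2 were 9.69, 10.12 and 10.71 in high responder cows 91, 93 and 94 and 9.34, 9.04 and 8.69 in low responder cows 91, 92 and 94. The effects on ACOD1 were 4.49, 4.85 and 5.12 in the high responders and 4.22, 3.97 and 3.68 in the low responders. High and low responders again did not overlap for either gene, as was the case in this direction for 11% of 11905 genes. The difference of the effects was 1.17 for NOS2 (SE 0.26, adjusted p = 0.0592, edgeR) and 0.87 for ACOD1 (SE 0.19, adjusted p = 0.0541), so that neither was called, whereas 190 genes or 1.62% of those tested were. Both were past the threshold with DESeq2, at 1.19 (adjusted p = 0.000212) and 0.90 (adjusted p = 0.000421), and both without high responder cow 91, at 1.42 and 1.03 with edgeR. Within codes 91 and 92 and codes 93 and 94, high minus low was 0.50 and 1.73 for NOS2 and 0.40 and 1.30 for ACOD1. PRF1, the 1 NK cell marker with an identifier, was at 2.09 to 2.50 TPM in exposed high responders and at 0.89 to 2.14 TPM in exposed low responders at 18 hours, and its part in these differences was not tested.

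**Figure D2:**
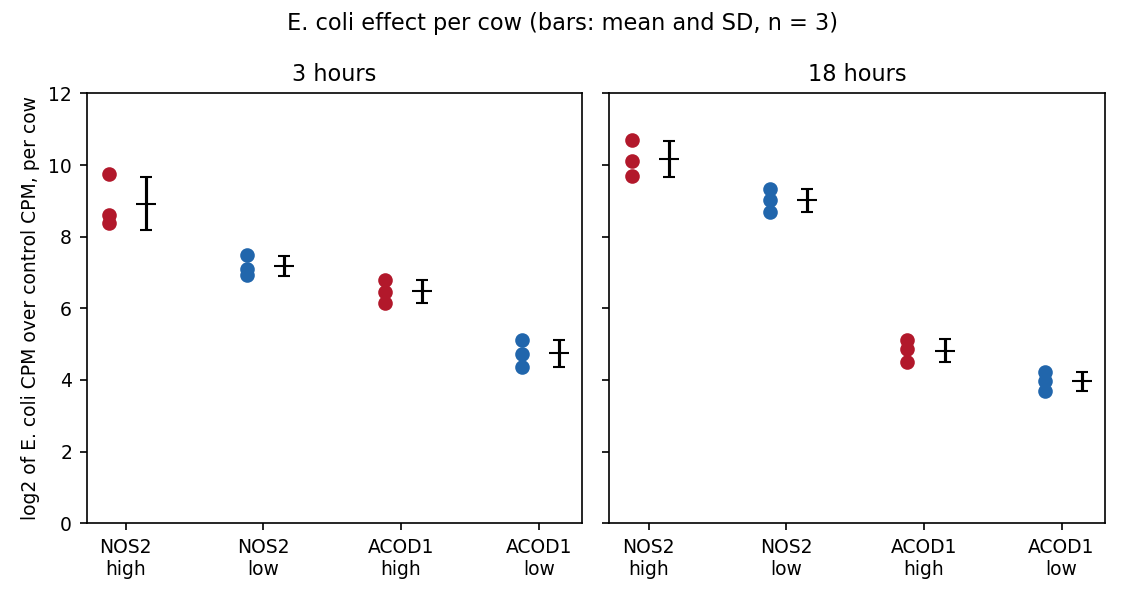
The log2 ratio of exposed to control CPM for each cow (points) at 3 hours (left) and 18 hours (right), by gene and phenotype (high in red, low in blue), with bars for the mean and SD of 3 cows. In each gene and time all 3 high responder cows lie above all 3 low responder cows, with means of 8.92 and 7.18 for NOS2 at 3 hours and of 10.17 and 9.02 at 18 hours.

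Control wells and exposed wells were also compared between phenotypes on their own. At 3 hours, high minus low in control wells was -0.97 on the log2 scale for NOS2 (SE 0.39, adjusted p = 0.577, edgeR) and -1.20 for ACOD1 (SE 0.30, adjusted p = 0.274). For both genes the 3 control wells of the high responders lay below those of the low responders, as for 6.95% of 11905 genes. In exposed wells at 3 hours, high responders differed from low responders by 0.63 for NOS2 (SE 0.29, adjusted p = 0.401) and 0.53 for ACOD1 (SE 0.25, adjusted p = 0.413), with overlap between the phenotypes. None of these was called, and 0.00906% of genes were called in control and 0.0839% in exposed wells. With DESeq2, the lower ACOD1 of high responder control wells was past the threshold (-1.22, adjusted p = 0.0181).

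At 18 hours, control wells differed by 0.13 for NOS2 (SE 0.30, adjusted p = 0.840, edgeR) and -0.19 for ACOD1 (SE 0.24, adjusted p = 0.687), each smaller than its SE, and either sign turned when single cows were left out (to -0.14 for NOS2 without low responder cow 92 and to 0.089 for ACOD1 without low responder cow 94). In exposed wells the ratio of high to low responders was 2.43 for NOS2 (log2 1.28, SE 0.28, adjusted p = 0.0944) and 1.62 for ACOD1 (log2 0.70, SE 0.19, adjusted p = 0.134). Neither was called by edgeR, which called 0.15% of genes in control and 0.0446% in exposed wells, and both were past the threshold with DESeq2 (1.30, adjusted p = 8.88e-05, and 0.71, adjusted p = 0.00931). The exposed wells of both phenotypes did not overlap for either gene, as for 12.2% of 11905 genes in this direction. Within codes 91 and 92 and codes 93 and 94, exposed wells of high responders were higher by 1.22 and 1.26 on the log2 scale for NOS2 and by 0.81 and 0.50 for ACOD1.

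**Figure D3:**
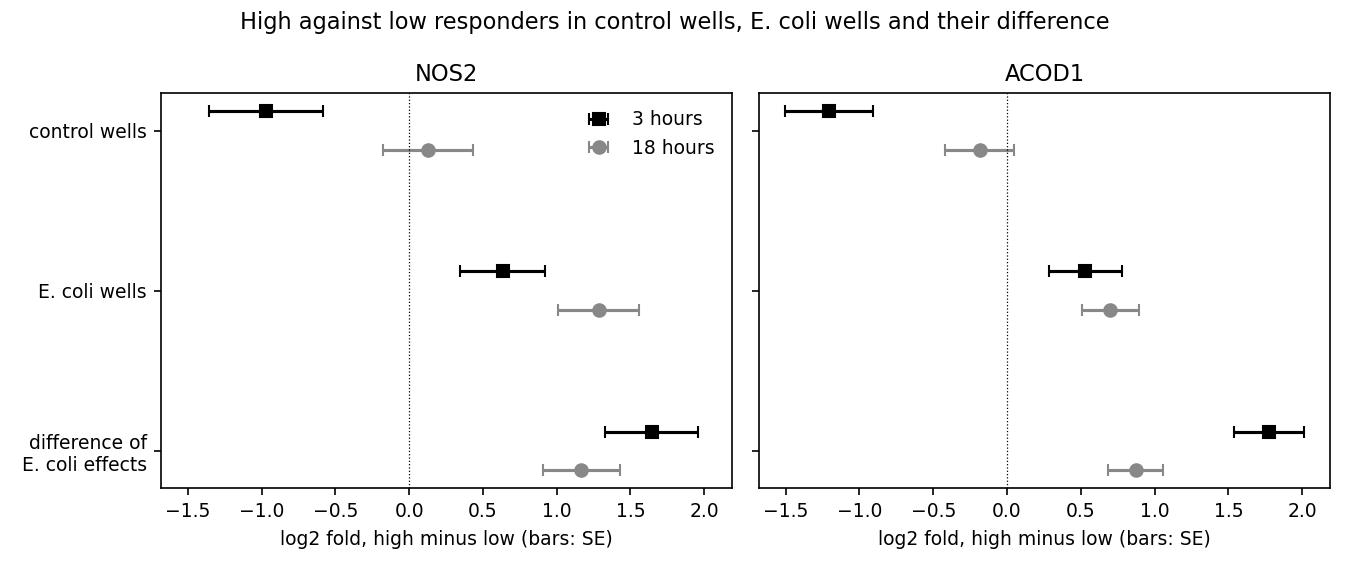
Difference of high minus low responders (log2, points, with bars for the SE of edgeR's fit) in control wells, in E. coli wells and in the difference of their E. coli effects, at 3 hours (black squares) and 18 hours (grey circles). At 3 hours the control wells lie at -0.97 for NOS2 and -1.20 for ACOD1, and at 18 hours near 0, where the E. coli wells lie at 1.28 and 0.70.

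The third question was how the enzymes changed between 3 and 18 hours of exposure. NOS2 rose further in both phenotypes, while ACOD1 fell in low responders and missed the threshold in high responders in edgeR's fit without matching across times. In exposed wells, NOS2 was 4.25-fold higher at 18 than at 3 hours in high responders (log2 2.09, SE 0.31, adjusted p = 0.000708, edgeR) and 2.61-fold higher in low responders (log2 1.38, SE 0.30, adjusted p = 0.00745). ACOD1 fell by 0.84 in low responders (SE 0.22, adjusted p = 0.0199). In high responders, its change was -0.61 (SE 0.22, adjusted p = 0.0576), which was not called, whereas with library letters as a block across times it was (-0.61, adjusted p = 0.00801). Of all genes tested, 10.9% were called higher at 18 hours in high responders and 7.64% in low responders, and 13.1% and 11.6% were called lower. The fall of ACOD1 in low responders missed the threshold without low responder cow 92 at 3 hours (-0.65, adjusted p = 0.0814), without cow 92 at 18 hours (-0.68, adjusted p = 0.0795) or without cow 93 at 3 hours (-0.83, adjusted p = 0.0578). Whether the difference between phenotypes itself changed from 3 to 18 hours was tested in 1 fit of all libraries, with a change of -0.44 for NOS2 (SE 0.45, adjusted p = 0.788) and -0.87 for ACOD1 (SE 0.33, adjusted p = 0.425). No gene passed this test with edgeR (0% called), although 1160 of 11905 reached an unadjusted p under 0.05, and DESeq2 found 35.

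Levels of both genes can be compared only per transcript length, which is what TPM gives. In control wells, ACOD1 was the more abundant, from 23.3 to 97.8 times the TPM of NOS2. After 3 hours of E. coli it was still between 6.58 and 8.65 times as abundant, with 3260 to 4121 TPM of ACOD1 against 479 to 523 TPM of NOS2 in high responders and 1893 to 3099 TPM against 219 to 460 TPM in low responders. At 18 hours the ratio was 1.27, 1.03 and 1.05 in high responder cows 91, 93 and 94 and 1.39, 2.01 and 1.76 in low responder cows 91, 92 and 94. The high responders all lay closer to equal TPM of both enzymes than the low responders. Ranked by TPM among 24616 genes, NOS2 moved from places between 9481 and 10980 in control wells to places 44 to 59 in exposed high responders and 104 to 235 in exposed low responders at 18 hours. ACOD1 was at places 32 to 41 in exposed high responders at 3 hours.

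Within a cow, the E. coli effect was larger for NOS2 than for ACOD1 in 6 of 6 cows at both times. The gap between both log2 effects, on the TPM scale, averaged 2.44 at 3 hours and 5.21 at 18 hours. An exact two-sided sign-flip permutation test gave p = 0.031 at each time, the smallest that 6 cows allow, and 0.0625 after adjustment over 4 tests. The log2 ratio of ACOD1 to NOS2 in exposed wells at 18 hours was 0.15 ± 0.17 (SD, n = 3) in high and 0.76 ± 0.27 in low responders. This difference of -0.61 gave p = 0.1 in an exact two-sided permutation test, the smallest that 3 against 3 cows allow (adjusted 0.133). At 3 hours the ratio was 2.83 ± 0.16 in high and 2.99 ± 0.20 in low responders (difference -0.15, exact permutation p = 0.3, adjusted 0.3).

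**Figure D4:**
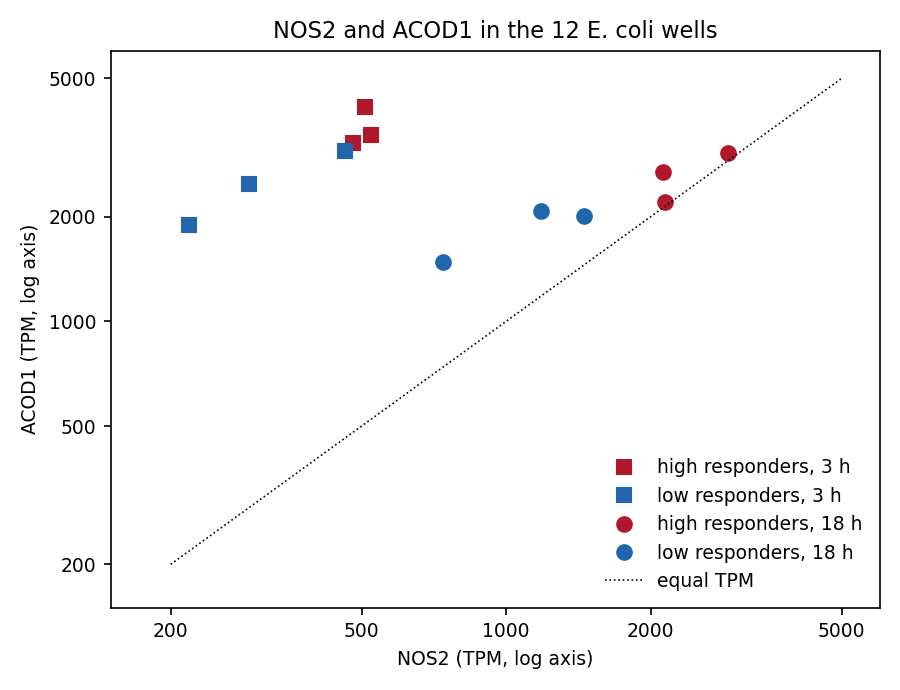
TPM of ACOD1 against TPM of NOS2 on log axes in the 12 E. coli wells, with squares for 3 hours, circles for 18 hours, high responders in red, low responders in blue and a dotted line where both genes have equal TPM. All wells of 3 hours lie far above the line, at 6.58 to 8.65 times more ACOD1, and the high responders of 18 hours lie close to it, at 1.03 to 1.27 times.

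The genes around both enzymes were described by lists, of which only members with a gene symbol paired to an identifier could be used. Such symbols came from the study's tables of the difference between phenotypes and cover 86.3% of the genes called in the difference at 18 hours but 19.3% of those tested, so that counts of list members in that difference are descriptions. Of the genes called for E. coli at 18 hours, 28.5% had a symbol in high and 27.7% in low responders, so that list counts for these effects also lie high against the shares over all genes. Of 20 genes of nitric oxide and arginine metabolism, 7 had an identifier and 6 were tested. Neuronal NOS1 had 0 counts in all 24 libraries, which allows up to 3 counts in each. At 18 hours, 2 of the 6 were called higher and 2 lower in high responders, and 2 higher and 3 lower in low responders, with medians of -0.00 and -0.28 against -0.04 and 0.0018 over all genes tested. Over all genes, 17.1% were called higher and 22.5% lower at 18 hours in high responders, and 11.3% and 17.8% in low responders. None of the 6 was called by edgeR in the difference between phenotypes, against 0.178% of all genes tested at 3 hours and 1.62% at 18 hours. At 18 hours DESeq2 put ASS1 (-1.35, adjusted p = 0.0122) and ARG2 (0.60, adjusted p = 0.00743) past the threshold.

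GCH1, the first enzyme of tetrahydrobiopterin synthesis, had E. coli effects at 3 hours of 2.85 (log2, SE 0.26) in high and 2.00 (SE 0.25) in low responders, and of 2.58 and 1.97 at 18 hours, all called. Its level in exposed wells at 18 hours was 106 CPM ± 6.82 (SD, n = 3) in high and 81.9 CPM ± 8.36 in low responders. ARG2 rose by 2.82 and 2.27 at 3 hours and by 2.06 and 1.49 at 18 hours in high and low responders. Its difference at 18 hours was 0.57 (SE 0.13, adjusted p = 0.0552, edgeR), which like that of GCH1 (0.61, SE 0.16, adjusted p = 0.0912) was not called.

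ASS1 went the other way. At 18 hours its E. coli effect was -3.48 (log2, SE 0.28) in high and -2.19 (SE 0.27) in low responders, both called, which left it at 6.06 CPM ± 3.30 (SD, n = 3) and 5.79 CPM ± 0.48. Control wells at 18 hours had 68.3 CPM ± 11.2 in high and 26.8 CPM ± 8.10 in low responders. This contrast was 1.35 on the log2 scale (SE 0.24, adjusted p = 0.0660, edgeR) and was not called. The exposed wells of both phenotypes overlapped in ASS1. The difference of its effects was -1.29 (SE 0.39, adjusted p = 0.130, edgeR).

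The NADPH oxidase makes superoxide, which reacts with nitric oxide, and 4 of its 6 listed subunits were tested. At 18 hours, 3 rose in high responders and 2 in low responders, with medians of 1.72 and 0.59, against 17.1% and 11.3% of all tested genes called higher. The membrane subunit CYBB rose by 2.05 and 1.19, and the cytosolic organizer NCF1 by 2.11 and 1.19. The cytosolic subunit NCF4 rose by 1.39 in high responders (SE 0.20) and changed by -0.02 in low responders (SE 0.21). Its difference of 1.41 (SE 0.29, adjusted p = 0.0422, edgeR) was the 1 call by edgeR among the 4, against 1.62% of all genes tested. With DESeq2, CYBB (0.89, adjusted p = 0.00215) and NCF1 (0.94, adjusted p = 0.00180) were past the threshold too, and with no filter on low counts as well (adjusted p = 0.0250 and 0.0224). In exposed wells at 18 hours, CYBB was at 4547 CPM ± 290 (SD, n = 3) in high and 4081 CPM ± 438 in low responders. Its control wells had 1113 CPM ± 294 and 1779.7 CPM ± 336. NCF1 was at 362 CPM ± 8.98 and 249.6 CPM ± 8.60 in exposed wells and at 85.9 CPM ± 27.7 and 109 CPM ± 16.3 in control wells. The call of NCF4 was lost without the term for the cow (1.38, adjusted p = 0.511), with a term for the library code (1.27, adjusted p = 0.105), and without high responder cow 91 (1.58, adjusted p = 0.0505) or low responder cow 91, 92 or 94 (1.43, 1.24 and 1.57).

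Of 26 genes of the citrate cycle and of itaconate metabolism, ACO1, IDH3G and DLD had an identifier, and none of these 3 was called in any of the 4 effects of E. coli or in either difference. Their effects lay between -0.52 and 0.35 on the log2 scale. Over all genes tested, 0.178% were called in the difference at 3 hours and 1.62% at 18 hours. Genes that itaconate is known to act on through NFE2L2 and ATF3 were tested for 5 of 7. At 18 hours, 4 were called higher in high responders, and 2 higher and 1 lower in low responders. Over all genes tested, 17.1% were called higher in high responders, and 11.3% higher and 17.8% lower in low responders. None of the 5 was called by edgeR in the difference at 18 hours, against 1.62% of all genes tested, nor at 3 hours. With DESeq2, the difference at 18 hours was past the threshold for HMOX1 (1.10, adjusted p = 0.00239) and ATF3 (0.92, adjusted p = 0.0260). NFKBIZ, the inhibitor of kappa B zeta, rose by 4.91 and 3.76 at 3 hours and by 3.49 and 3.07 at 18 hours in high and low responders. NFE2L2, the regulator of antioxidant genes, rose by 1.43 and 1.08 at 18 hours. Its target HMOX1, a heme oxygenase, was at -0.27 in high responders (not called) and fell by 1.35 in low responders at 18 hours. ATF3, a stress-induced repressor, rose by 1.21 in high responders and was at 0.32 in low responders (not called). Its exposed wells at 18 hours had 548 CPM ± 41.8 (SD, n = 3) in high and 582 CPM ± 37.7 in low responders. The control wells had 250 CPM ± 109 and 463 CPM ± 70.1, so that the means differed more in control than in exposed wells. In control wells at 18 hours, none of the 5 was called by edgeR between phenotypes, against 0.15% of all genes tested.

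Among known inducers of both enzymes, 9 of 16 were tested. At 18 hours, 5 rose and 1 fell in high responders, and 3 rose and 2 fell in low responders, against 17.1% of all tested genes called higher and 22.5% lower in high responders and 11.3% and 17.8% in low responders. IRF1, a transcription factor that binds the NOS2 promoter, rose by 4.93 and 3.71 at 3 hours and by 4.59 and 3.32 at 18 hours in high and low responders. In exposed wells at 18 hours it was at 2047 CPM ± 149 (SD, n = 3) in high and 1280.1 CPM ± 157 in low responders. Control wells at 18 hours had IRF1 at 84.6 CPM ± 7.44 in high and 127 CPM ± 24.6 in low responders. The difference of its effects was 1.22 at 3 hours (SE 0.25, adjusted p = 0.0988, edgeR) and 1.27 at 18 hours (SE 0.16, adjusted p = 0.00799), the second of which was called. DESeq2 also put that at 3 hours past the threshold (1.21, adjusted p = 0.00248). At 3 hours, control wells had 72.4 CPM ± 8.21 of IRF1 in high and 157 CPM ± 5.51 in low responders. Exposed wells had 2162 CPM ± 569 and 2037 CPM ± 155, with high minus low at 0.12 (SE 0.24, adjusted p = 0.848, edgeR). The call at 18 hours was lost without the term for the cow (1.28, adjusted p = 0.113) and was past the threshold without each single cow (adjusted p up to 0.0490). IRF8, a partner of IRF1, rose by 1.47 in high and by 2.24 in low responders, and MYD88, the adaptor of toll-like receptors, fell by 0.96 and 0.72.

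**Figure D5:**
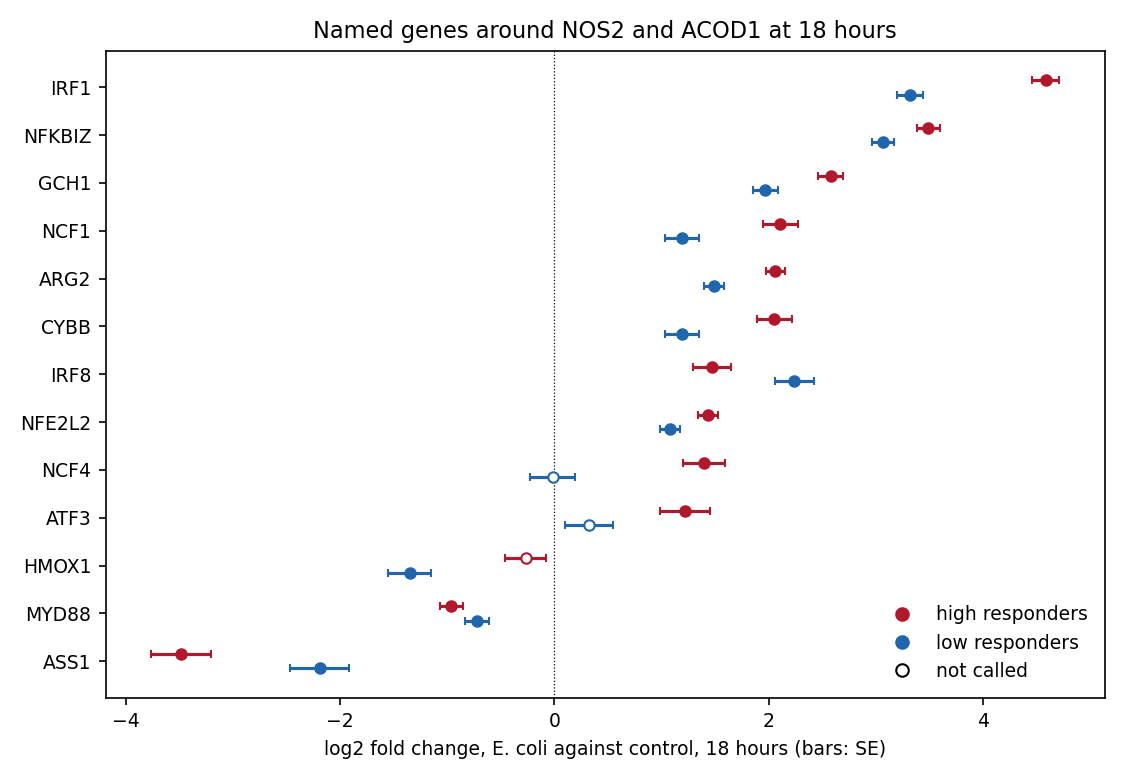
Effect of E. coli at 18 hours (log2 fold change, with bars for the SE of edgeR's fit) on the named genes around NOS2 and ACOD1, in high (red) and low (blue) responders, with open circles for effects that were not called. IRF1 lies at 4.59 and 3.32 at the top and ASS1 at -3.48 and -2.19 at the bottom, and NCF4 and ATF3 are called in high but not in low responders, with a difference between these of 1.41 and 0.90, called by edgeR for NCF4 and by DESeq2 for both.

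The genes whose pattern was most like that of each enzyme were found by Pearson's r of log2 CPM over the 24 libraries and 11905 genes. The libraries fall into control and exposed wells, and r over all of them includes that contrast. For NOS2 the closest was CXCL16, a chemokine and scavenger receptor (r = 0.992), followed by ENSBTAG00000002977 (0.989), ENSBTAG00000004741 (0.988), ENSBTAG00000046158 (0.987) and ENSBTAG00000015061 (0.986), which have no symbol here. For ACOD1 these were ARG2 (r = 0.989), IRF1 (0.989), ENSBTAG00000047904 (0.989), ENSBTAG00000010998 (0.986) and the neutrophil chemokine CXCL2 (0.986). NOS2 and ACOD1 had an r of 0.962 with each other over all 24 libraries, ACOD1 being 25th for NOS2. Over the 12 exposed libraries their r was -0.14. These libraries span both times, and at 18 hours mean NOS2 was higher and mean ACOD1 lower than at 3 hours in both phenotypes. An r within 1 time was not computed. Over the exposed libraries CXCL16 kept an r of 0.964 with NOS2, and ARG2 and IRF1 an r of 0.869 and 0.801 with ACOD1, where the 5 genes closest to ACOD1 were others (r between 0.966 and 0.975).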

How the data were processed

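mRNA of 24 libraries was analysed. Per the labels and methods, the authors made stranded libraries, sequenced read pairs, trimmed them with Trimmomatic, checked them with FastQC 0.11.5, mapped them with STAR to UMD 3.1, quantified genes with RSEM and tested with DESeq2 1.22.2. The deposited tables hold expected counts (estimated, not normalized), TPM scaled by the authors per effective length and library, and effective lengths, which RSEM gives in bases. The counts of NOS2 and ACOD1 were whole in all libraries. Other counts were rounded.

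Counts were normalized by TMM and filtered with filterByExpr (edgeR 4.0.16 in R 4.3.3). Each time point was fitted with cow terms plus a separate E. coli effect for either phenotype and tested with the quasi-likelihood test, with Benjamini-Hochberg adjusted p over all genes tested. SEs are the log2 fold change over the root of F. Control and exposed wells were each compared in fits of 6 libraries, times in 12 exposed libraries, and the change of the difference in all 24. CPM are TMM-normalized over all libraries.

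Control and exposed libraries of 1 phenotype and time with the same code number were taken as wells of 1 cow, as the methods describe 1 of each per cow. Their deviations from the condition means correlated between 0.372 and 0.727 in 12 same-numbered pairs and between -0.571 and 0.0163 in 24 others. No replicates were near-identical (chi-square per degree of freedom at least 15.0).

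Named genes are NOS2, ACOD1, the 2 highest and 2 lowest members of each list in the 18 hours difference, members called in a difference, GCH1, ASS1, ARG2 and IRF1, and the 5 genes most like each enzyme. Results for some genes that this rule names are not reported here. The members, lists and tests were chosen with earlier results of these data known. Symbols came from 2 supplementary tables of which 1997 rows each were read (2808 identifiers), and no sequences were used. The study's own fold changes and p-values in those tables were not used.

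Alternatives were DESeq2's size factors, no filter, a mean of at least 50 counts, DESeq2 1.42.0, effective length offsets, a fit without cow terms, 1 fit of all libraries, a term for library code, the library letter as a block across times, and leaving out each cow. On simulated data with 200 genes changed by 2 on the log2 scale, the difference of effects recovered 174 of the 200 at 3 hours with 10 false calls among 11086 genes tested, and 178 of the 200 at 18 hours with 9 among 11613. The simulated means did not differ between cows, and low responders had no E. coli effect. The differences of NOS2 and ACOD1 were smaller, from 0.87 to 1.77, so these counts do not give the power for them. With 3 cows per phenotype, an exact permutation test cannot go below p = 0.1.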

Additional observations from a re-analysis of the deposited data

Results flagged for a closer look

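In all, 3 tests of the difference between phenotypes passed the threshold among the genes named. List members called in a difference were named for that reason, so this count is a description. Of all genes tested, 0.178% were called in the difference at 3 hours and 1.62% at 18 hours. The effect of E. coli on ACOD1 was larger in high than in low responders at 3 hours by 1.77 on the log2 scale (adjusted p = 0.0279, edgeR), with effects in 3 of 3 high responder cows above those of 3 of 3 low responder cows. At 18 hours the effect on IRF1 was larger by 1.27 (adjusted p = 0.00799) and that on NCF4 by 1.41 (adjusted p = 0.0422). Both of these calls were lost without the term for the cow. With 1 cow left out, that of IRF1 was kept in 6 of 6 fits and that of NCF4 in 2 of 6. Single conditions of 3 cows were too few to test for a cow that stands apart.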

How the results depend on the processing

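For NOS2 and ACOD1, 30 results were computed under 418 alternatives, of which 415 kept the direction and 385 also the side of the threshold. The 8 effects of E. coli on both genes were called under every alternative run. The pairing was part of the fit: with no replicate block the difference of ACOD1 at 3 hours was 1.74 and no longer past the threshold, and the block for library letters took the change of ACOD1 in exposed high responders past it (-0.61). With a term for the library code the ACOD1 difference at 3 hours was 1.79. Results that were newly past the threshold were the difference of NOS2 at 3 hours (1.63 with no filter, 1.66 with DESeq2, 1.60 in 1 fit of all libraries), that of NOS2 at 18 hours (1.17 with no filter, 1.19 with DESeq2), that of ACOD1 at 18 hours (0.90 with DESeq2's size factors, 0.88 with no filter, 0.90 with DESeq2), ACOD1 in control wells at 3 hours (-1.22 with DESeq2, -1.20 in 1 fit of all libraries), NOS2 in exposed wells at 18 hours (1.30 and 1.29), ACOD1 there with DESeq2 (0.71) and the change of ACOD1 in exposed high responders with DESeq2 (-0.64). Leaving out 1 cow gave differences at 3 hours of 1.35 to 1.81 for NOS2, which passed without high responder cow 94 (1.78), and of 1.59 to 1.96 for ACOD1. At 18 hours they were 0.90 to 1.42 for NOS2 and 0.72 to 1.03 for ACOD1. In control wells at 18 hours the sign turned, with -0.14 to 0.40 for NOS2 (turned without high responder cow 91 or low responder cow 92) and -0.36 to 0.089 for ACOD1 (turned without low responder cow 94). The change of ACOD1 from 3 to 18 hours was -0.74 to -0.47 in high responders, past the threshold without high responder cow 94 (-0.74) or low responder cow 91 (-0.61) at 3 hours, and -0.98 to -0.65 in low responders. The cause of these shifts was not tested.

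Of 51 results on other named genes, 5 of 714 alternatives turned a sign, all of effects that were not called: NCF4 in low responders at 18 hours was at 0.034 with no replicate block, 0.0033 in 1 fit of all libraries and 0.035 with a term for library code, and -0.17 to 0.16 when 1 cow was left out (turned without low responder cow 92), and HMOX1 in high responders was at -0.45 to 0.018 (turned without high responder cow 91). Of the others, 24 newly passed the threshold and 8 lost it. Those that gained were differences between phenotypes: at 3 hours of IRF1 and NFKBIZ with DESeq2, no filter and 1 fit of all libraries, at 18 hours of CYBB, NCF1, HMOX1, ATF3, ASS1 and ARG2 with DESeq2, and the rest with other size factors, no filter or 1 cow left out. Counts of called genes depended on the tool and on single cows. The difference at 3 hours gave 20 genes, 103 with no filter, 189 with DESeq2, 34 with length offsets, 165 in 1 fit of all libraries, and 0 with no replicate block or a term for library code. Without high responder cow 94 it gave 506, without high responder cow 92 it gave 13, and without high responder cow 93 or any low responder cow 0. At 18 hours it gave 190, 435 with no filter, 398 with DESeq2, 124 in 1 fit, 67 with a term for library code, 0 with no replicate block, 30 without low responder cow 92 and 76 without low responder cow 94. For these, 1430 and 2067 genes had an unadjusted p below 0.05. Control wells gave 1 and 17 genes at 3 and 18 hours with edgeR and 240 and 692 with DESeq2, and exposed wells 9 and 5 with edgeR and 280 and 638 with DESeq2. The effects of E. coli at 3 hours gave 3113 and 1995 genes in high and low responders, and 1824 and 829 with no replicate block, the second falling to 932 without low responder cow 92 and 1153 without cow 91. Of the 5 genes most like each enzyme, Spearman's rho shared 2 for NOS2 and 1 for ACOD1, and Pearson's r over the 12 exposed libraries 1 and 0. Depth limits the control level of NOS2, which rests on 16 to 117 counts per library.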

Other observations

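The letters of the library codes pair wells of 3 and 18 hours within a phenotype, which the labels do not state. Deviations from the condition means correlated between 0.291 and 0.700 in 12 pairs of libraries with matching letters and between -0.537 and 0.0110 in 24 others. Here too, deviations cancel out within each condition, which by itself lowers the correlation of the others. Matched by letter, NOS2 in exposed wells was higher at 18 than at 3 hours and ACOD1 lower in 6 of 6 pairs. The share of all genes with 6 of 6 pairs in 1 direction was not computed, so this count is a description. ACOD1 went from 5017 to 2726, from 4308 to 3183 and from 3398 to 2368 CPM in the high responders and from 2281 to 1307, from 3738 to 1848 and from 2981 to 1935 CPM in the low responders. The low responder pair with letters A and B had the lowest exposed level of both enzymes in its phenotype at both times, with NOS2 at 805 CPM at 3 hours and 1988 CPM at 18 hours. The high responder pair with these letters had the highest exposed NOS2 at both times, 2002 and 9294 CPM.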
